A study of Rattus norvegicus with 4 samples.

Results

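The genes described here are 10 genes linked to growth arrest and to the transcription factor p53: Cdkn1a, Gadd45a, Gadd45b, Gadd45g, Mdm2, Ccng1, Ccng2, Sesn1, Plk2 and Plk3. They were taken from a list of names chosen with earlier results of these data known. Every probe set whose annotation names one of them and no other gene was used. That gave 14 probe sets of 31042 on the array, the control probe sets left out, and all 10 of 14217 genes with such a probe set. A probe set is a group of short probes that reports on a transcript. The 4 arrays measured RNA from the adrenal medulla of rats, the core of the adrenal, whose chromaffin cells are its source of circulating adrenaline. Of these, 2 arrays came from rats immobilized for 2 h, a common stress procedure in rodents, and 2 from unstressed rats. The labels give no strain, sex or age, and do not say how often the rats were immobilized, how soon afterwards tissue was taken, or whether an array holds 1 animal or a pool. P-values therefore measure the spread between these arrays, which may be technical, and precision is limited by having 4 arrays.

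As background, p53 is held at a low level by the ubiquitin ligase Mdm2 and is released when DNA is damaged or a cell is otherwise stressed. It then raises transcription of Cdkn1a, Mdm2 itself, Ccng1, Sesn1, Gadd45a, Plk2 and Plk3, and through Cdkn1a it halts the cell cycle. Most of these genes also answer to other signals: Gadd45 genes, Cdkn1a and Plk2 can be switched on by growth factors, cAMP or MAP kinases without p53, and Ccng2, Sesn1 and Gadd45a are known targets of the FoxO factors, which insulin signalling holds in check. Adult chromaffin cells rarely divide.

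Intensities are linear, in arbitrary units, and scaled to a common trimmed mean. Across the 4 arrays the median was 827 to 955, and 27 control probe sets for Bacillus transcripts, used here as a background level, read 2.18 to 257. Changes are differences in log2(intensity + 16), immobilized minus unstressed, with the moderated SE of limma (n = 2 arrays per group), and folds are on the same scale. The median change of all 18625 tested probe sets was -0.12, and centring each array on its median moved it to 0.02. All 8 measured chromaffin markers read above the Bacillus controls, and so did all 7 measured markers of the adrenal cortex, the outer part of the gland. Some of both were among the brightest probe sets. By level, the chromaffin markers Th and Dbh stood at percentiles 99.92 and 99.93. The cortex markers Cyp11a1 and Fdx1 stood at 99.93 and 99.96, so the RNA carried a strong cortex signal. The dimmest of each list were Phox2a at 91.94 and Nr5a1 at 97.0. The summed intensity of the chromaffin markers was 377162 and 268941 on the immobilized arrays, against 306235 and 279076 on the unstressed arrays. That of the cortex markers was 346602 and 251418 on the immobilized arrays, against 317340 and 357971 on the unstressed arrays. Both sums overlapped between the groups. The highest intensity on immobilized 2 was 52133, the lowest such maximum of the 4 arrays. Both sums rest mostly on probe sets near the top of the range, so their overlap does not settle the tissue make-up. Whether the lower maximum shaped the sums was not tested. Of the 8 chromaffin markers 0 passed limma's test (1 at an unadjusted p under 0.05), and of the 7 cortex markers 1 did (1 higher and 1 lower at an unadjusted p under 0.05). The median change of the cortex markers was -0.24. Cyp11b1, Cyp11a1, Cyp21a1, Hsd3b1 and Fdx1, which act in steroid synthesis, were at -0.64, -0.35, -0.27, -0.24 and -0.19 without passing. Star was at 0.07, and Nr5a1, a transcription factor, was the marker that passed, at 0.47. The call on Nr5a1 was lost without immobilized 1, immobilized 2 or unstressed 1 (adjusted p = 0.133, 0.168 and 0.189). Of 4 tested Schwann and sustentacular cell markers, Gfap rose by 1.76 (adjusted p = 0.00215) and S100b changed by -0.59 (0.0168). Of 5 tested endothelial markers, Flt1 rose by 1.45 (0.00474) and Kdr changed by -0.79 (0.0238). Without immobilized 1 and without immobilized 2 the calls on S100b (changes of -0.62 and -0.55) and Kdr (-0.64 and -0.95) were lost. That on Flt1 was lost without immobilized 1 (1.20). Of the tested markers of macrophages and lymphocytes (6), fibroblasts (5) and red blood cells (2), 0 passed, also at an unadjusted p under 0.05. In bulk tissue, fewer cells of a type and less RNA per cell cannot be told apart, and the part of any of these cell types in the results below was not tested.

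After immobilization 5 of the 10 genes were higher, 2 were lower and 2 did not pass the test, each taken by its brightest probe set, and Plk3 was too dim to be tested. Cdkn1a, Gadd45g, Gadd45a, Plk2 and Gadd45b rose, by 8.74, 8.61, 7.35, 3.87 and 2.01-fold. Ccng2 and Sesn1 fell, to levels 3.47 and 3.19-fold below those of unstressed rats. Mdm2 and Ccng1 did not pass, at 0.03 and -0.01 on the log2 scale. By probe set, 5 of the 10 tested were higher, where 11.7% of all tested probe sets were, and 2 were lower, where 19.4% were. By gene, 5 of 9 were higher against 11.2% of all 10320 tested genes, and 2 of 9 were lower against 21.8%, so the share of falls lay near that of all genes. The groups did not overlap at 7 of the 10 tested probe sets, a share close to the 67.8% of all tested probe sets. The median change of the 9 tested genes was 1.01, against -0.14 over all tested genes. Because the genes were chosen with earlier results of these data known, these shares and medians are description and no independent test.

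**Figure D1:**
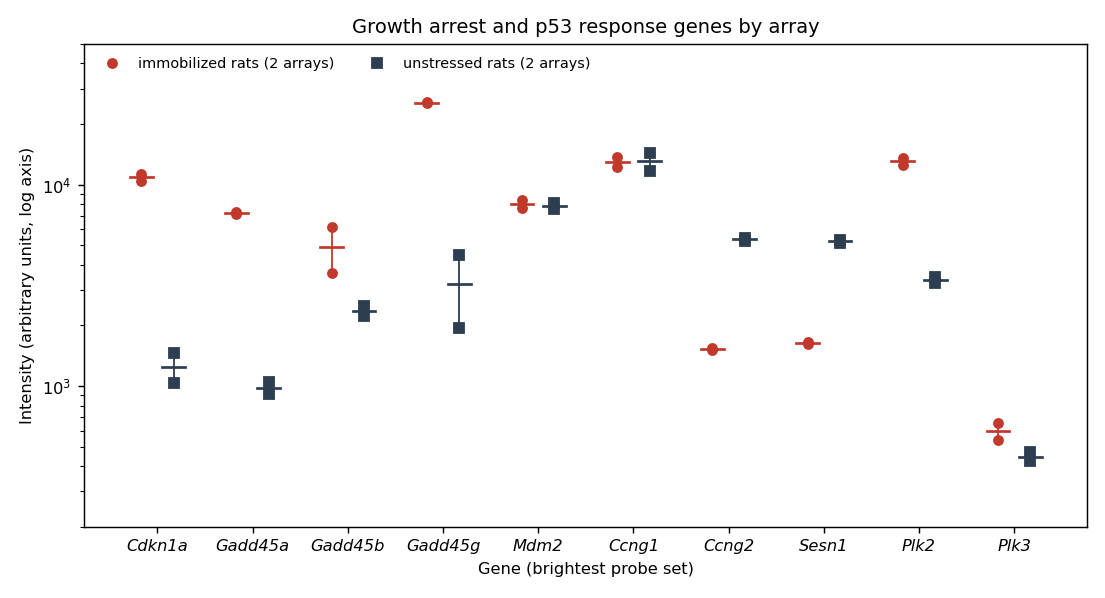
Intensity of each gene's brightest probe set (vertical log axis, arbitrary units) on the 2 immobilized arrays (circles) and the 2 unstressed arrays (squares), with a horizontal bar at each group's mean. The immobilized arrays stand above the unstressed ones for Cdkn1a, the 3 Gadd45 genes, Plk2 and Plk3, below them for Ccng2 and Sesn1, and overlap them for Mdm2 and Ccng1. Heights of different genes come from different probes and are not comparable.

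Cdkn1a encodes p21, which binds and inhibits the cyclin-dependent kinases that drive cells into DNA synthesis. Its brighter probe set read 11324 and 10471 on the immobilized arrays, against 1039 and 1459 on the unstressed arrays. The groups lay far apart. The immobilized arrays were close to each other, while the unstressed arrays differed more in proportion. The change was 3.13 ± 0.19 (adjusted p = 0.000158), and it ranked 63 from the top among the 10320 tested genes. A second probe set for Cdkn1a read 1377 and 1402 on the immobilized arrays, against 13.6 and 18.4 on the unstressed arrays. Both unstressed readings were no higher than Bacillus controls reach, which leaves only a bound: its immobilized level was at least 6.80-fold above the mean of the highest control readings on the unstressed arrays. Its mean was under the level needed for testing, and without that filter its adjusted p was 0.000663. Both probe sets thus read higher in both immobilized arrays than in either unstressed array.

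To show what lies before the start of the genes that moved, promoter sequences from RefSeq (rat assembly GRCr8) are printed below as the 250 bases before the annotated start, 5′ to 3′ on the gene's strand. All 10 genes were found in that table. Capitals mark matches on either strand to the cAMP response element TGACGTCA, which binds CREB, its half-site TGACG, the FoxO site TGTTTAC, the TATA box core TATAA, the CCAAT box CCAAT, and the p53 half-site. A match describes letters only and is not evidence that a factor binds. The Cdkn1a window lies at chr20:7150682-7150931 on the + strand and holds a p53 half-site that begins 201 bases before the start, a half-site of the cAMP response element and a TATA box core.
Cdkn1a: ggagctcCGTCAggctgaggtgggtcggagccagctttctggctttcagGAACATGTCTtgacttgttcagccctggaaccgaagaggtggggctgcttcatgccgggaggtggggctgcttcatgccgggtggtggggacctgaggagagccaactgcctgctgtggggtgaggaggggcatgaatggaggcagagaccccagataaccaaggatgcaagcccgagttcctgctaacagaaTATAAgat

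Gadd45 proteins are small stress sensors that bind the kinase Map3k4 upstream of p38 and JNK, the replication clamp Pcna and the mitotic kinase Cdk1. All 3 family genes rose, by unequal amounts. Gadd45a read 7191 and 7358 on the immobilized arrays, against 913 and 1042 on the unstressed arrays. Its change was 2.88 ± 0.16 (adjusted p = 0.000117). Gadd45g read 25327 and 25804 on the immobilized arrays, against 1947 and 4482 on the unstressed arrays. The immobilized arrays nearly coincided, while the unstressed arrays differed by more than the lower of them. Its change was 3.11 ± 0.34 (adjusted p = 0.00139), and its size depended on the unstressed arrays: it was 2.51 without unstressed 1 and 3.70 without unstressed 2. It remained past the threshold in both cases.

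Gadd45b had the smallest rise of the family. It read 3650 and 6141 on the immobilized arrays, against 2218 and 2488 on the unstressed arrays. Both immobilized arrays were above both unstressed ones, but they stood far apart from each other. Its change was 1.01 ± 0.25, with a 95% interval of 0.41 to 1.60 (adjusted p = 0.0237). This call rested on the array immobilized 2: without it the change was 0.63 with an adjusted p of 0.142. The intervals of Gadd45a, 2.50 to 3.26, and Gadd45g, 2.29 to 3.92, lay wholly above that of Gadd45b, although the differences between the genes were not themselves tested. In the promoter windows, Gadd45a at chr4:97486800-97487049 (- strand) holds a half-site of the cAMP response element, a CCAAT box and a p53 half-site. Gadd45g at chr17:13530352-13530601 (- strand) holds a CCAAT box and a TATA box core, as does Gadd45b. The windows of the 2 genes with the larger rises are given here.
Gadd45a: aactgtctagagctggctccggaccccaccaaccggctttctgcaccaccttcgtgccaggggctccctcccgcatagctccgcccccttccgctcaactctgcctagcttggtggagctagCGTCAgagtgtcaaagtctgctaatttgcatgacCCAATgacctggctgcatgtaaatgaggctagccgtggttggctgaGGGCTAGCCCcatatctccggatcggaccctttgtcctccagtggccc
Gadd45g: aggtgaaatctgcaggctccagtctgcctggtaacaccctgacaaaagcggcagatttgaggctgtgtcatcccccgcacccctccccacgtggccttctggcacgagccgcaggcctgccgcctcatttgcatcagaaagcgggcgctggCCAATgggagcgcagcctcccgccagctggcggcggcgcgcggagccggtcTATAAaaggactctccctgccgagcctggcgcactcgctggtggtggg

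The Polo-like kinases Plk2 and Plk3 are stress and activity responsive kinases. Plk2, known in neurons as a gene induced by synaptic activity, read 12523 and 13623 on the immobilized arrays, against 3251 and 3483 on the unstressed arrays. Its change was 1.95 ± 0.12 (adjusted p = 0.000188), which ranked 198 from the top. Plk3 read 654 and 539 on the immobilized arrays, against 422 and 470 on the unstressed arrays. Both immobilized readings were the higher ones, but the gap was small, a change of 0.40. Its mean level was under the filter, at percentile 38.8 of all probe sets, and without the filter its adjusted p was 0.405 with a 95% interval of -0.29 to 1.10. The Plk2 window, chr2:43702286-43702535 on the + strand, is the only one of the 10 to hold the whole 8-base cAMP response element, which begins 66 bases before the start. The element occurs in 1.59% of all 33469 windows.
Plk2: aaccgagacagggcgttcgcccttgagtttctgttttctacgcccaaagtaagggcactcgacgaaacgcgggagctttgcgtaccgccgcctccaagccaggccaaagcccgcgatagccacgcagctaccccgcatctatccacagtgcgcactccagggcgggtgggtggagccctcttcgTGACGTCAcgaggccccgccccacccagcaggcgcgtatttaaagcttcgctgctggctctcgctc

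The p53 feedback gene Mdm2 had 2 tested probe sets. The brighter read 8365 and 7673 on the immobilized arrays, against 8094 and 7578 on the unstressed arrays. The other read 3892 and 4603 on the immobilized arrays, against 4019 and 4911 on the unstressed arrays. The groups overlapped at both. Their changes were 0.03 ± 0.12 (95% interval -0.26 to 0.32) and -0.07 ± 0.16 (-0.46 to 0.32), with adjusted p of 0.865 and 0.777. On the fold scale the interval of the brighter one is 0.836 to 1.25, which leaves room for a change of that size in either direction and not for a 2.01-fold rise such as that of Gadd45b. Another, dim probe set read 873 and 376 on the immobilized arrays, against 297 and 861 on the unstressed arrays, and was not tested.

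Ccng1 and Ccng2 encode the G-type cyclins, which do not drive the cell cycle forward. Ccng1 is a p53 target whose product acts on Mdm2, and Ccng2 is found mostly in resting cells. Ccng1 read 12195 and 13804 on the immobilized arrays, against 11750 and 14440 on the unstressed arrays. The immobilized readings lay between the unstressed ones, and the change was -0.01 ± 0.15 (95% interval -0.36 to 0.35, adjusted p = 0.981). Ccng2 read 1512 and 1542 on the immobilized arrays, against 5245 and 5445 on the unstressed arrays. The arrays within each group nearly coincided. Ccng2 fell by 1.80 ± 0.15 on the log2 scale (adjusted p = 0.00046) and ranked 98 from the bottom among all tested genes. The intervals of the paralogs do not meet, since that of Ccng2 runs from -2.15 to -1.45, but their difference was not tested. The Ccng2 window holds none of the motifs searched.

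Sesn1 encodes a sestrin, a stress-induced protein that restrains the growth kinase complex mTORC1. It read 1612 and 1657 on the immobilized arrays, against 5329 and 5157 on the unstressed arrays. As with Ccng2, the groups were far apart and each pair of arrays was close. Sesn1 fell by 1.67 ± 0.15 on the log2 scale (adjusted p = 0.000612) and ranked 134 from the bottom. A dim second probe set read 488 and 252 on the immobilized arrays, against 649 and 1005 on the unstressed arrays. Its change of -1.17 ran the same way and was not tested. Without the filter its adjusted p was 0.107. The Sesn1 window, chr20:46948469-46948718 on the + strand, holds a p53 half-site, a CCAAT box and a half-site of the cAMP response element.
Sesn1: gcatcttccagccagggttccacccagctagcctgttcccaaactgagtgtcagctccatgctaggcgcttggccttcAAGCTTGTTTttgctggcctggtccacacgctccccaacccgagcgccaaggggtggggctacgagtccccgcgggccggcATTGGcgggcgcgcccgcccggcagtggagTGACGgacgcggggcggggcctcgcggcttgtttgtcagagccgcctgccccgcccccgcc

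**Figure D2:**
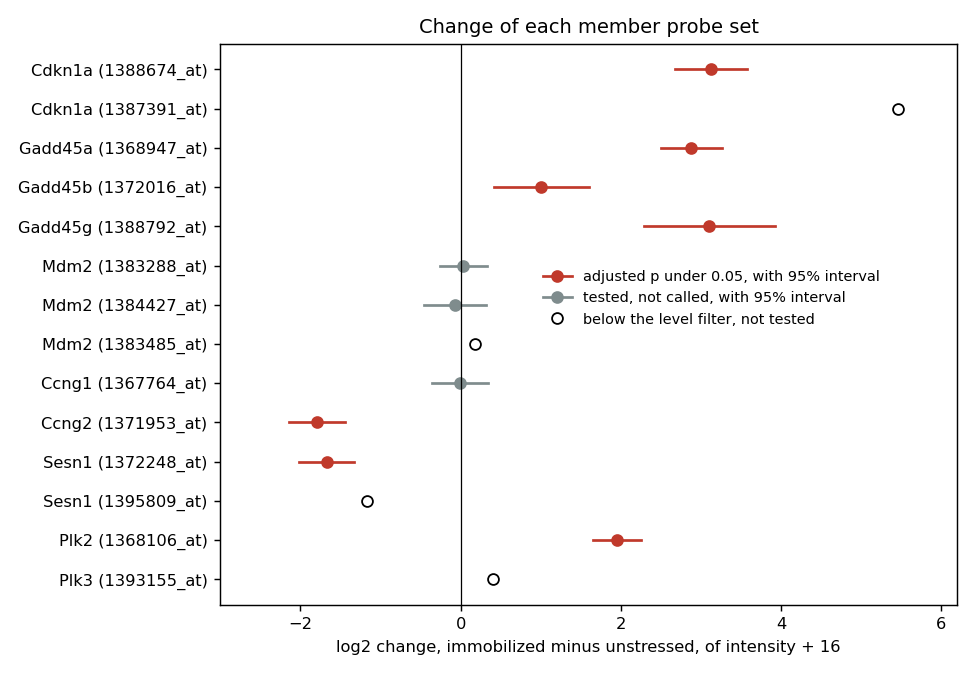
Change of each of the 14 probe sets on the log2(intensity + 16) scale, immobilized minus unstressed, with the 95% interval of the limma fit for the 10 tested ones. Filled red points passed an adjusted p of 0.05, grey points did not, and open points were below the level filter. Among the tested ones, 5 lie right of 0, 2 left of it, and the intervals of Mdm2 and Ccng1 span 0.

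Matches to the p53 half-site, the half-site of the cAMP response element and the CCAAT box stood in windows of rising, falling and uncalled genes. A p53 half-site was found in the windows of Cdkn1a and Gadd45a, which rose, of Sesn1, which fell, and of Ccng1, which did not pass, against 6.64% of all windows. A half-site of the cAMP response element was found in 6 of the 10 windows, those of Cdkn1a, Gadd45a, Plk2, Plk3, Mdm2 and Sesn1, against 18.2%. The matches in Plk2 overlap its full element. The CCAAT box was found in 6 windows, those of Gadd45a, Gadd45b, Gadd45g, Mdm2, Ccng1 and Sesn1, against 34%. The TATA box core was found in 4 against 24%, those of Cdkn1a, Gadd45b and Gadd45g, which rose, and of Plk3, which was not tested. Its matches stood at unlike places: 8 bases before the start in Cdkn1a, 39 and 38 in Gadd45b, 48 in Gadd45g and 226 in Plk3. The FoxO site was found in 1, that of Mdm2, against 3.21%. No window held the AP-1 site TGANTCA or the core of the serum response element, found in 6.34% and 1.5% of all windows.

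**Figure D3:**
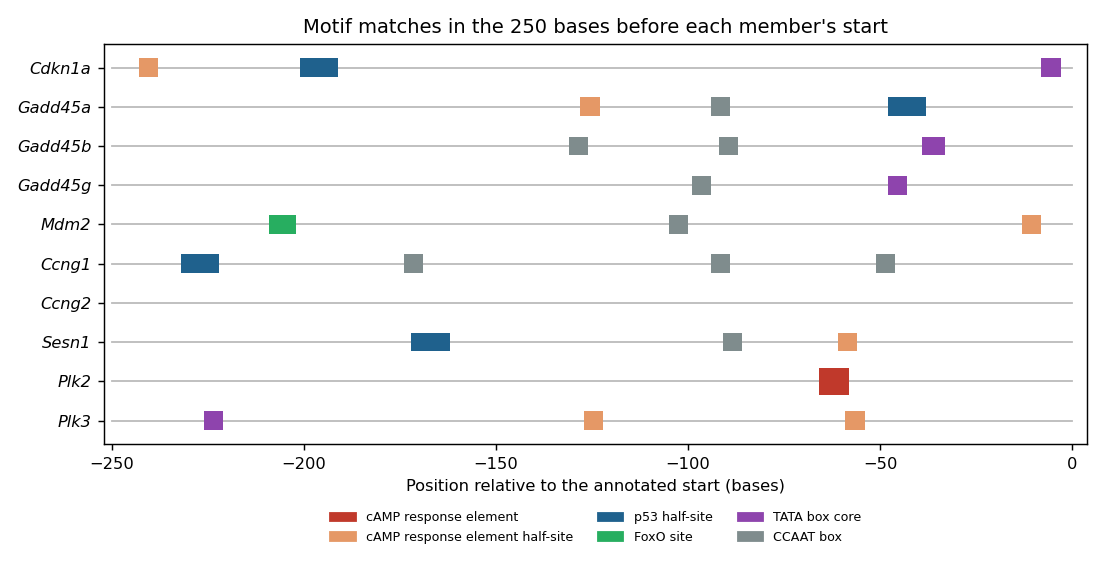
Matches to 6 motifs in the 250 bases before the annotated start of each gene (horizontal axis, bases relative to the start), 1 row per gene and 1 coloured block per match on either strand. The full cAMP response element stands in the Plk2 row alone, p53 half-sites stand in 4 rows, and the Ccng2 row is empty.

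Other genes of the pathway were read by their brightest probe sets, against the same backgrounds of 11.2% higher and 21.8% lower. Of 30 other p53 targets listed, 21 had a probe set that names them alone, and 16 were tested. Of these 16, 1 rose and 6 fell, with a median change of -0.33. The rise was that of Ddit4, a stress-induced inhibitor of mTORC1, which read 22766 and 18607 on the immobilized arrays, against 4291 and 3351 on the unstressed arrays. Its change was 2.44 ± 0.17. The falls included Ddb2 and Xpc, which recognise damaged DNA in nucleotide excision repair. Xpc read 2867 and 2871 on the immobilized arrays, against 9019 and 9431 on the unstressed arrays, a change of -1.68 ± 0.12 (adjusted p = 0.000313). Ddb2 read 512 and 548 on the immobilized arrays, against 1831 and 1834 on the unstressed arrays, a change of -1.76 ± 0.21. Pml, which builds nuclear bodies, changed by -1.66 ± 0.20. The smaller falls, named after their values were seen, were those of the repair nuclease gene Ercc5 (-1.30) and the apoptosis genes Apaf1 (-0.74) and Bbc3 (-0.72). All 3 calls were lost without immobilized 1 (changes of -1.28, -0.70 and -0.68) and without immobilized 2 (-1.31, -0.78 and -0.76). The sizes thus moved little. Those on Apaf1 and Bbc3 were also lost without unstressed 1 (-0.70 and -0.62). Averaging probe sets also ended the call on Apaf1 (-0.44, adjusted p = 0.138). Neither Phlda3, at -0.50, nor Ei24, at -0.37, passed, though Ei24 did after quantile normalization (-0.44, 0.0247), with the filter at the 60th percentile (0.0423) and with averaged probe sets (0.0456). Of the targets too dim to be tested, Perp (1.25) and Gdf15 (0.80) were higher, and Tp53inp1 (-1.11) and Plk1 (-0.79) were lower, with overlapping groups at Plk1. Polk read no higher than Bacillus controls reach on any array. Without the filter none of them passed, the lowest adjusted p being 0.0571, for Tp53inp1.

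Of 14 genes for p53 and its regulators, 9 were tested, of which 0 rose (0 also at an unadjusted p under 0.05) and 2 fell, with a median of 0.07. p53 itself is not among the tested genes. Mdm4, a relative of Mdm2 that also restrains p53, read 4508 and 4303 on the immobilized arrays, against 8455 and 6839 on the unstressed arrays. Its change was -0.79 ± 0.15 (adjusted p = 0.00872), but the mean over its probe sets gave -0.11 with an adjusted p of 0.614. Rchy1, another ligase of p53, changed by -0.84 ± 0.15. Both calls were lost without immobilized 1 (changes of -0.82 for Mdm4 and -0.78 for Rchy1) and without immobilized 2 (-0.75 and -0.90), though the sizes moved little. Neither Cdkn2aip, at 0.56, nor the phosphatase gene Ppm1d, at -0.44, passed.

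Relatives of the members were read in the same way. Of 4 other tested CDK inhibitor genes, 0 rose (0 also at an unadjusted p under 0.05) and 2 fell, with a median of -0.39. Cdkn2c read 2154 and 1876 on the immobilized arrays, against 4617 and 4757 on the unstressed arrays, a change of -1.21 ± 0.15. Cdkn2d changed by -0.87 ± 0.27 (adjusted p = 0.0485), a call lost without immobilized 1, immobilized 2 or unstressed 1 (changes of -1.12, -0.62 and -0.54). Cdkn1b, at 0.08, and Cdkn1c, at 0.19, the closest relatives of Cdkn1a, did not pass. Cdkn2b was too dim to be tested. It read 62.1 and 52.1 on the immobilized arrays, no higher than Bacillus controls reach, against 416 and 724 on the unstressed arrays. Its level was at least 2.70-fold lower after immobilization, and without the filter its adjusted p was 0.00735. Of 7 other sestrins, Polo-like kinases and cyclin relatives, 3 were tested and 0 were called, at an adjusted or an unadjusted p under 0.05, with a median of -0.11. Sesn2 and Sesn3 had changes of -0.30 and 0.56, and Sesn3 passed without unstressed 1 (0.78, adjusted p = 0.0448) or after quantile normalization (0.71, 0.0492).

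Of 9 tested genes for Gadd45 partners and for MAP kinase and cell cycle proteins that act with them, 2 rose and 4 fell, with a median of -0.49. The p38 activating kinase genes moved apart. Map2k3 read 29192 and 28172 on the immobilized arrays, against 8988 and 9380 on the unstressed arrays, a change of 1.64 ± 0.12. Map2k6 read 326 and 370 on the immobilized arrays, against 1799 and 1313 on the unstressed arrays, a change of -2.10 ± 0.25. Map3k4, the kinase that Gadd45 proteins bind, changed by -1.28 ± 0.17, and Pcna by 0.92 ± 0.13. The other falls, named after their values were seen, were those of Mapk14, the gene of p38 alpha (-0.72), and Mapk9 (-0.61). Without immobilized 2 both calls were lost (changes of -0.57 and -0.56). That on Mapk9 was also lost without immobilized 1 (-0.67) or unstressed 2 (-0.55). Neither Cdk1, at -0.49, nor Ccnb1, at -0.13, passed.

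Genes of cell division and of cell cycle entry were counted apart. Of 16 tested proliferation genes 1 rose and 3 fell, with a median of -0.28. The rise was that of Pcna. Mcm2, a subunit of the replicative helicase, changed by -1.49 ± 0.21, and Mcm6 and Tk1 by -0.99 and -0.69. Without immobilized 1 the calls on Mcm6 and Tk1 were lost (changes of -1.13 and -0.66), as they were without immobilized 2 (-0.845 and -0.72). Tk1 was also lost without unstressed 2 (-0.58) and with averaged probe sets (-0.43, adjusted p = 0.146). Cdk1 and Mcm3 had changes of -0.49 and -0.46. Of 14 tested G1 cyclins, their kinases and Rb-E2F genes, 1 rose and 6 fell, with a median of -0.43. Ccne1, the cyclin that Cdk2 pairs with at the start of DNA synthesis, read 2603 and 1332 on the immobilized arrays, against 666 and 608 on the unstressed arrays. Its change was 1.53 ± 0.33, and without immobilized 1 it was 1.05 (adjusted p = 0.0872). E2f2, Cdk2 and Rbl1 changed by -1.52, -0.97 and -0.77. The call on Cdk2 was lost without immobilized 1 or immobilized 2, with its change still -0.97 in both fits. So was that on Rbl1 (-0.60 and -0.94), which was also lost without unstressed 1 or unstressed 2 (-0.83 and -0.71). That on E2f2 was lost without immobilized 2 (-1.32). The other falls, named after their values were seen, were those of Ccnd3 (-0.49), Rbl2 (-0.48) and Cdk4 (-0.40). All 3 calls were lost without immobilized 1 (changes of -0.55, -0.58 and -0.44) and without immobilized 2 (-0.43, -0.38 and -0.35). Those on Ccnd3 and Cdk4 were also lost without unstressed 1 (-0.37 and -0.37), and that on Cdk4 without unstressed 2 (-0.42). The falls numbered 1 without immobilized 1, 0 without immobilized 2, and 4 and 5 without unstressed 1 and unstressed 2. Rises numbered 2 and 3 with an unstressed array left out. Rb1, at 1.06, did not pass (adjusted p = 0.0565) but did without immobilized 1 (1.62, 0.0243), unstressed 1 (0.0411) or unstressed 2 (0.0435). Ccnd1, at -0.48, passed at 0.05 without unstressed 2 (0.0323).

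Ccng2 and Sesn1, which fell, and Gadd45a, which rose, are known FoxO targets, so other genes of that pathway were read as well. Of 13 tested FoxO factors and other targets 4 rose and 3 fell, with a median of 0.04. Foxo1, a FoxO factor, read 3043 and 2395 on the immobilized arrays, against 8303 and 6897 on the unstressed arrays, a change of -1.48 ± 0.17. Irs2, which relays the insulin signal, rose by 2.94 ± 0.13, and the repressor gene Bcl6 by 2.07 ± 0.16. Klf2 rose by 1.15 ± 0.19, a call lost without immobilized 1 (adjusted p = 0.0675). The remaining calls, named after their values were seen, were Insr (0.93), Pik3ip1 (-1.12) and Pdk4 (-1.10). All 3 calls were lost without immobilized 1 (changes of 1.10, -1.29 and -0.98) and without immobilized 2 (0.75, -0.95 and -1.22). The list then had 2 rises and 1 fall, or 3 and 1. Averaging probe sets ended the calls on Insr (0.38, 0.284) and Pdk4 (-0.58, 0.0662), and left 3 rises and 2 falls. Neither Bcl2l11, at -0.44, nor Cat, at -0.36, passed, though Bcl2l11 did without unstressed 2 (0.043) and Cat after quantile normalization (0.034). Of 4 tested Btg and Tob genes, which slow cell division, 2 rose and 0 fell (0 also at an unadjusted p under 0.05), with a median of 0.42. Btg3 rose by 0.87 ± 0.12 and Btg1 by 0.72 ± 0.18. The call on Btg1 was lost without immobilized 1, unstressed 1 or unstressed 2 (changes of 0.49, 0.71 and 0.73). Tob1 and Tob2 had changes of 0.12 and -0.18.

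**Figure D4:**
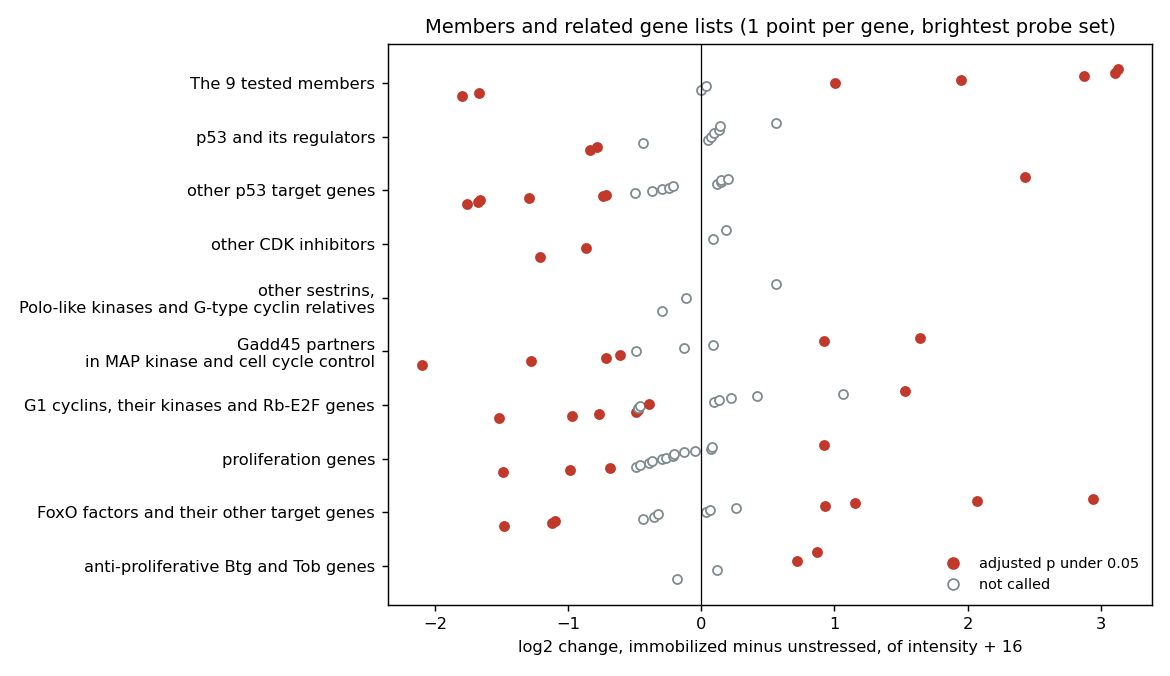
Change of each tested gene on the log2(intensity + 16) scale (horizontal axis, immobilized minus unstressed), 1 row per list and 1 point per gene by its brightest probe set, filled where the adjusted p was under 0.05. The members reach from Ccng2 at -1.80 to Cdkn1a at 3.13. Ddit4 at 2.44 is the one filled point right of 0 in the row of other p53 targets, where 6 lie left of it.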

How the data were processed

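The authors deposited 1 linear intensity per probe set and array (31099 rows, 4 arrays). For the summarisation of probes, the method was not given in the sources used here. The trimmed means of the 4 columns, 2% left out at each end, were equal within 0.00572%, so the deposited scaling was kept. After the 57 control probe sets were removed, intensities were turned into log2(intensity + 16), a scale on which dim genes change less than they truly do. Testing was limited to the 18625 probe sets whose mean log2 value reached the 40th percentile, equal to an intensity of 544.

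The groups, taken from the sample descriptions and numbered within each by accession only, were compared by a two-sided limma test (limma 3.58.1, R 4.3.3, trended eBayes, 6.81 degrees of freedom in all). P-values were adjusted by Benjamini-Hochberg over the 18625 probe sets and called under 0.05. An exact permutation test of 2 against 2 cannot give a p below 0.333. Genes were named from GEO's platform annotation where a probe set lists 1 symbol (20826 probe sets, against 436 with several and 9780 with none), updated by Entrez identifier (0 symbols changed). Of the 20826 probe sets, 20758 were found by that identifier in the gene table used. Whether each probe still matches the gene it is named for was not checked. A gene was represented by its brightest probe set.

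The members and lists were chosen with earlier results of these data known. All members are named, and from each list up to 4 called genes with the largest changes and up to 2 uncalled ones, by rule. Further called genes, the cell type markers, Cdkn2b, Cdc20 and the dim p53 targets were named after their values were seen. Lists are described by counts and medians, with no test of the list. Promoter windows are RefSeq's for GRCr8, 33469 for 27457 genes, and 8 motifs were searched on both strands. Alternatives were quantile normalization, median centring, offsets of 1 and 64, no filter, a filter at the 60th percentile, no trend, robust variance, each array left out, a threshold of 0.10 and averaging each gene's probe sets. An offset of 256 was added after the data were seen. Fits on 3 arrays take the spread of the single remaining array from the other group, and test the same probe sets. Plots were drawn with matplotlib 3.10.9.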

Additional observations from a re-analysis of the deposited data

How the results depend on the processing

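The 5 rises and 2 falls among the members were found under every alternative run, with 2 exceptions: 4 rises without immobilized 2, where Gadd45b was lost, and 6 higher probe sets without the filter, where the dim Cdkn1a probe set was tested too. Leaving out 1 array at a time gave 4 to 5 rises and 2 falls each time. Mdm2 and Ccng1 did not pass under any of them. The related lists moved more. Falls among other p53 targets were 6, but 3 with the filter at the 60th percentile and 4 after median centring. Falls of other CDK inhibitors were 2, but 1 after quantile normalization, median centring, the stricter filter or no trend. Without the filter they were again 2, with Cdkn2d lost (adjusted p = 0.0751) and Cdkn2b tested. Falls among G1 and Rb-E2F genes were 6, but 2 after median centring or no filter and 3 with no trend, and rises were 1, but 3 after quantile normalization, median centring, averaging probe sets or a threshold of 0.10, and 0 with the stricter filter. Falls of proliferation genes were 3, but 2 after quantile normalization, median centring or averaging probe sets, and 0 with the stricter filter, which left 3 genes tested. Without the filter they were also 3, with Tk1 lost (adjusted p = 0.0754) and the dim Cdc20 tested (-1.34, 0.0318). Falls among p53 regulators were 2, but 1 with averaged probe sets. Quantile normalization called 1 rise and 1 fall among the sestrins and relatives, where the deposited scaling called 0. Under the stricter filter fewer p53 targets (9 of 16), G1 genes (10 of 14) and proliferation genes (3 of 16) were tested, but all 4 CDK inhibitors still were. The causes were not tested. No paired analysis was possible because the labels number the samples without tying any array of one group to one of the other.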
